A study of Mus musculus with 4 samples.

Results

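The Toll-like receptors Tlr1 to Tlr9 and the co-receptor Cd14 were followed in mouse white adipose tissue after a high fat diet (HFD) and a low fat diet (LFD). Members were taken as the genes of these names among the probes of the arrays that were not controls, which gave 10 genes of 27617 gene names and 12 probes of 41174. Tlr1, Tlr2, Tlr4, Tlr5, Tlr6 and Cd14 formed the cell-surface set, and Tlr3, Tlr7, Tlr8 and Tlr9 the endosomal set. A probe was tested where the scanner software, Feature Extraction, judged its signal well above background in every sample of 1 diet or of both. By this filter 9 of the 10 genes were tested, 6 of 6 at the surface and 3 of 4 in endosomes, among 17736 tested genes.

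Female C57BL/6 mice, an inbred laboratory strain, were given HFD (High fat diet 32) or the standard LFD (CE2) from 8 weeks of age for 18 weeks. Each diet had 2 samples, and each sample was tissue mixed from 3 mice. The labels name no fat depot, and they do not say whether the samples of a diet came from separate pools, so the p-values describe the spread between these particular samples, some or all of it possibly technical. From each sample 500 ng of total RNA was amplified, labelled and hybridised to a 1-colour whole genome array, on which the brightness of a spot stands for the level of a transcript.

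Toll-like receptors are membrane proteins whose outer part binds microbial molecules and whose inner TIR domain recruits adaptor proteins. Those at the cell surface recognise bacterial lipids and proteins, and those in endosomes recognise nucleic acids. Their signal runs through Myd88 or Ticam1 to NF-κB and interferon regulatory factors, which switch on cytokine genes. In fat they are best known from macrophages, although adipocytes also carry some of them, and Tlr4 with Cd14 has been studied most for its link to obesity.

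The arrays measured each receptor with probes of 60 bases, and 3 of the probes shared a run of bases. The probes for Tlr1, Tlr2 and Tlr8 each had an open reading frame through all 60 bases and held the 6-base run printed in capitals. They are shown because the Tlr2 probe formed the 2 most alike pairs of the set, with that of Tlr1 and that of Tlr8.
Tlr1: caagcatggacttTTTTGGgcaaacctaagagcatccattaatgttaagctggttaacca
Tlr2: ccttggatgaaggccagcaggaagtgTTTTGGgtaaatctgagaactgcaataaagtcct
Tlr8: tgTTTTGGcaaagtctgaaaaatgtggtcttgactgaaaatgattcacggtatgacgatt
Set on the shared run, the Tlr1 and Tlr2 probes had 29 of 47 overlapping bases in common (61.7%), and the Tlr2 and Tlr8 probes 22 of 36 (61.1%). The Tlr1 and Tlr8 probes were less alike, with 19 of 49 (38.8%). Over all 66 pairs of the 12 probes, 61.7% was the highest identity at an overlap of at least 30 bases, and the longest run shared by any pair was 8 bases. Cross-hybridisation itself was not tested. In build mm9, the coordinates of the files, these probes lie on the minus strand at chr5:65316115-65316174, chr3:83640344-83640403 and chrX:163680715-163680774. Annotation of mm9 was not used here, so exon and UTR positions are not given for any probe.

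All 4 arrays lay on 1 slide and were read in 1 scan. Between 21312 and 27936 probes per array were well above background. HFD replicate 2 had the fewest. The mean signal of the negative control spots was 73.9 and 95.6 in LFD and 106.3 and 116.0 in HFD. This background was thus higher on both HFD arrays than on both LFD arrays, and highest on HFD replicate 2. Its part in the results, above all for dim probes, was not tested. Summed adipocyte markers lay between 1220 and 1390 times the array's 75th percentile, with overlapping diets, so every sample carried the signal of its labelled tissue. LFD replicate 1 stood apart in lymphocyte genes: it exceeded LFD replicate 2 in 5 of 6 B cell markers and 6 of 6 T cell markers, with median log2 differences of 1.49 and 1.71. Over all tested genes the median log2 change between diets was 0.02.

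The comparison of diets asked which of these receptors differed in fat after prolonged HFD feeding. Transcripts of Tlr6, Tlr5, Tlr2 and Tlr7 were higher in HFD, by 2.82-, 1.83-, 1.79- and 1.69-fold. Tlr1 had the largest fold of the tested members, 3.58, but did not pass the test, and its LFD samples differed widely from each other. Tlr4, Cd14, Tlr3 and Tlr9 did not pass, with folds between 1.07 and 1.29. Of the 9 tested members, 4 (44.4%) were thus called higher and none lower by limma, at an adjusted p under 0.05 (Benjamini-Hochberg, over every probe tested). Over all tested genes 5.75% were called higher and 5.61% lower. At an unadjusted p under 0.05, 5 members were higher and 0 lower, where 18.2% of all tested genes were higher and 16.7% lower. With 2 samples against 2, an exact permutation test of a single gene cannot give a two-sided p below 0.333, so the calls rest on limma's pooling of the spread over probes.

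Each member is described by its signal as a multiple of the 75th percentile of its array, a scale on which levels of different probes cannot be compared. Changes are differences of log2 signal, HFD minus LFD, with their standard error (SE).

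**Figure D1:**
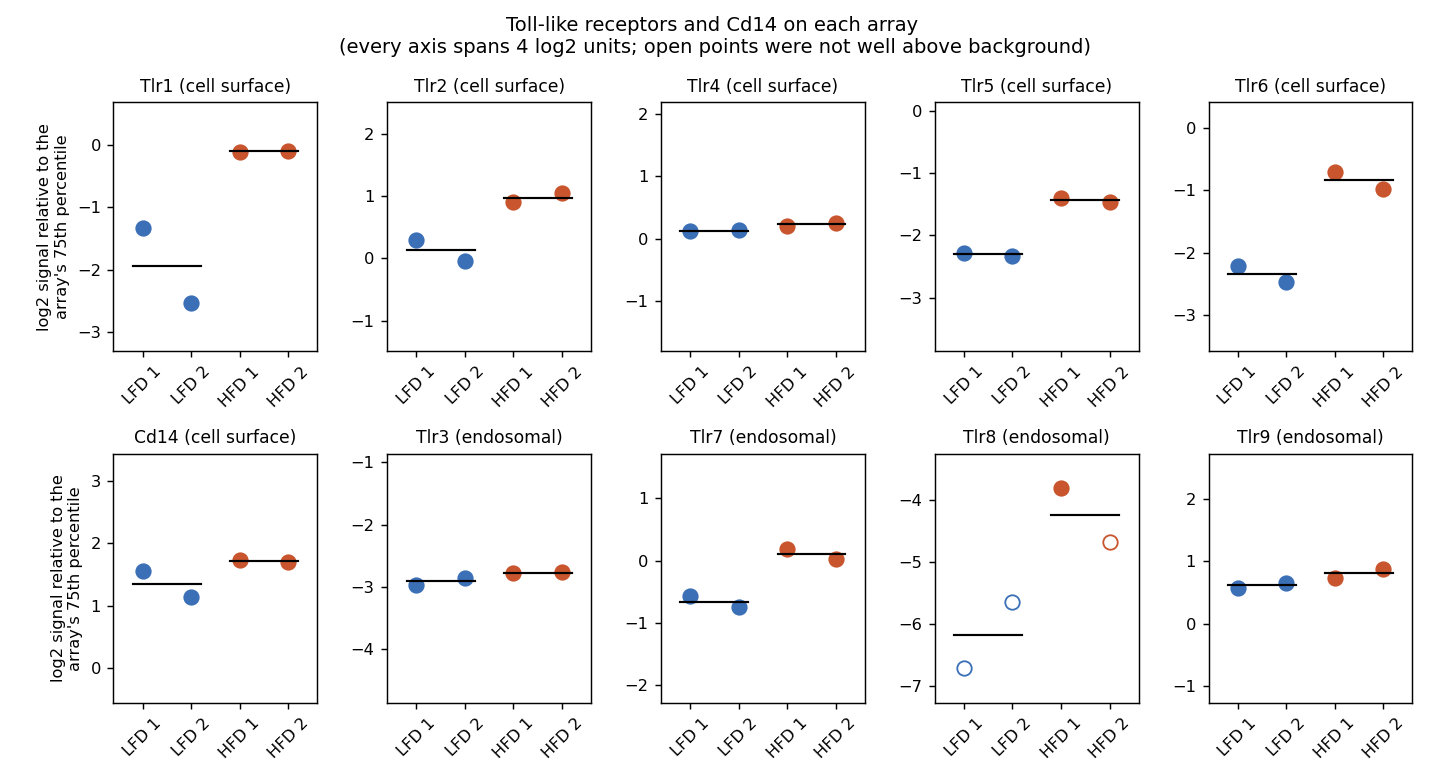
Log2 signal, scaled to the 75th percentile of each array (y), on the 4 arrays (x), 1 panel per member; horizontal lines are diet means and every axis spans 4 log2 units. Both HFD points lie above both LFD points for all 9 tested members, by gaps from 0.06 for Tlr4 to 1.24 for Tlr1. Of all tested genes 36.2% did so, and 32.7% had both HFD points below. Tlr8 was well above background on HFD replicate 1 only, so its panel is not counted.

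Among the surface receptors, Tlr6 joins Tlr2 to recognise diacylated bacterial lipopeptides. Its probe (chr5:65344365-65344424) read 0.216 and 0.181 times the array's 75th percentile in LFD, and 0.614 and 0.507 in HFD. Every HFD value was over 2-fold every LFD value. The log2 change was 1.50 (SE 0.16, adjusted p = 0.0213), with a 95% confidence interval from 1.07 to 1.93.

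Tlr1, the other partner of Tlr2, serves the recognition of triacylated lipopeptides. Its level was 0.394 and 0.173 times the 75th percentile in LFD and 0.93 and 0.938 in HFD. The HFD samples were nearly equal, and both lay above both LFD samples, but LFD replicate 1 was far above LFD replicate 2. The log2 change was 1.84 with an SE of 0.42, the widest of the tested members, and an adjusted p of 0.0662. LFD replicate 1 is also the sample with the higher lymphocyte markers, whose part in the spread of Tlr1 was not tested. Without LFD replicate 1 the log2 change was 2.44 (adjusted p = 0.0428) and without LFD replicate 2 it was 1.24 (adjusted p = 0.0480), but either fit takes the spread of Tlr1 from its nearly equal HFD samples alone, so its p carries no weight. Without HFD replicate 1 or 2 the adjusted p was 0.1799 or 0.2246. The Tlr1 and Tlr6 probes lie 28.2 kb apart on chromosome 5.

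Tlr2 itself, the shared partner of both and a receptor for lipoproteins, was measured by 10 spots of 1 probe on every array. The mean of these spots was 1.23 and 0.973 times the 75th percentile in LFD and 1.86 and 2.08 in HFD. The samples of the diets did not overlap, and the gap between them was 0.59 on the log2 scale. Tlr2 was higher by 0.84 (SE 0.16, adjusted p = 0.0484, 95% interval 0.41 to 1.27), close to the threshold. The spots of 1 array spread by an SD of 0.05 to 0.07 log2 units. The lowest Tlr2 spot on any HFD array, 0.82, lay above the highest on any LFD array, 0.39. Spots of 1 array repeat the same sample, so this shows the precision of the reading and not that of the diet effect.

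Tlr5 is the receptor for flagellin, the protein of bacterial flagella. Its probe (chr1:184906201-184906260) read 0.206 and 0.199 times the 75th percentile in LFD and 0.38 and 0.364 in HFD. The samples within each diet lay close together and the diets did not overlap. The log2 change of 0.88 had an SE of 0.09 and an adjusted p of 0.0217 (95% interval 0.62 to 1.13).

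Tlr4, which with its partner Ly96 recognises bacterial lipopolysaccharide, was also measured by 10 spots per array (chr4:66503724-66503782). Its level was 1.09 and 1.11 times the 75th percentile in LFD and 1.15 and 1.19 in HFD. The diets were separated by only 0.06 log2 units, and the replicate spots overlapped, with LFD spots reaching 0.28 and HFD spots starting at 0.00. The log2 change was 0.10 (SE 0.09, adjusted p = 0.4851), and its 95% interval ran from -0.15 to 0.35. That upper end lies under the lower ends for Tlr2, Tlr5 and Tlr6, although differences between members were not tested. A second Tlr4 probe, designed to another transcript, had no array on which it was well above background and was not tested.

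**Figure D2:**
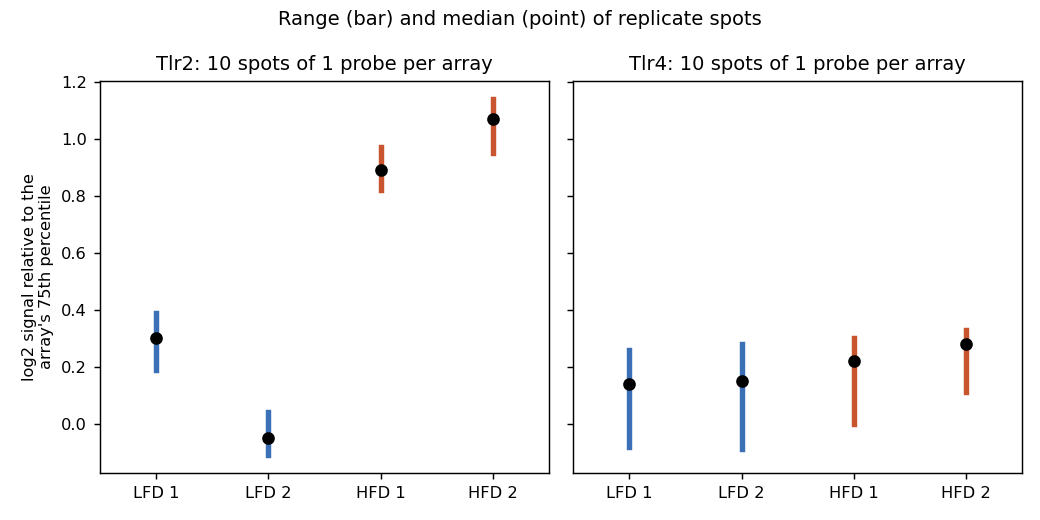
Log2 signal, scaled to the 75th percentile of each array (y), of the 10 replicate spots of Tlr2 and of Tlr4 on each array (x); bars run from the lowest to the highest spot and points are medians. For Tlr2 the HFD bars (0.82 to 0.97 and 0.95 to 1.14) clear the LFD bars (0.19 to 0.39 and -0.11 to 0.04), whereas all Tlr4 bars overlap.

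Cd14 is the surface protein that hands lipopolysaccharide to Tlr4 and also serves Tlr2. It read 2.95 and 2.21 times the 75th percentile in LFD and 3.34 and 3.26 in HFD. LFD replicate 2 was the low sample, and LFD replicate 1 lay 0.14 log2 units under the nearer HFD sample. The log2 change was 0.37 (SE 0.17, adjusted p = 0.2076, 95% interval -0.09 to 0.83), so the data do not separate no change from one as large as that of Tlr7.

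Among the endosomal receptors, Tlr7 recognises single-stranded RNA. Its probe (chrX:163743189-163743248) read 0.671 and 0.593 times the 75th percentile in LFD and 1.13 and 1.01 in HFD. Both HFD values exceeded both LFD values, with a gap of 0.59 log2 units. Tlr7 was higher by 0.76 (SE 0.12, adjusted p = 0.0384, 95% interval 0.43 to 1.09).

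Tlr8, whose probe lies 62.4 kb from that of Tlr7 on the X chromosome, belongs to the same RNA-sensing group. Its scaled log2 signal was -6.71 and -5.64 in LFD and -3.82 and -4.68 in HFD. HFD replicate 1 was the only array on which it stood well above background, so it was not tested. With 1 measured value in all, no fold is given.

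Tlr9 recognises DNA with unmethylated CpG. It read 1.5 and 1.58 times the 75th percentile in LFD and 1.67 and 1.84 in HFD. The diets did not overlap, but the gap was 0.08 log2 units, and the log2 change of 0.19 (SE 0.11) had an adjusted p of 0.2745 and a 95% interval from -0.10 to 0.48.

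Tlr3, the receptor for double-stranded RNA, signals through Ticam1 and not Myd88. Its brighter probe (chr8:46482009-46482068) read 0.128 and 0.137 times the 75th percentile in LFD and 0.145 and 0.148 in HFD. The log2 change was 0.14 (SE 0.10, adjusted p = 0.3511, 95% interval -0.12 to 0.40). A dimmer probe nearby gave 0.08 (SE 0.22, adjusted p = 0.8120) with overlapping diets, and it was well above background on 1 of the HFD arrays only.

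By location, 3 of 6 surface members were called higher, where 5.75% of all tested genes were. The surface members had a median log2 change of 0.86 and a range from 0.10 to 1.84. Of the 3 tested endosomal members 1 was called higher, with a median of 0.19 and a range from 0.14 to 0.76. The difference between the locations was not tested. All 9 tested members had both HFD samples above both LFD samples, which 36.2% of all tested genes did, while 32.7% had both below.

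**Figure D3:**
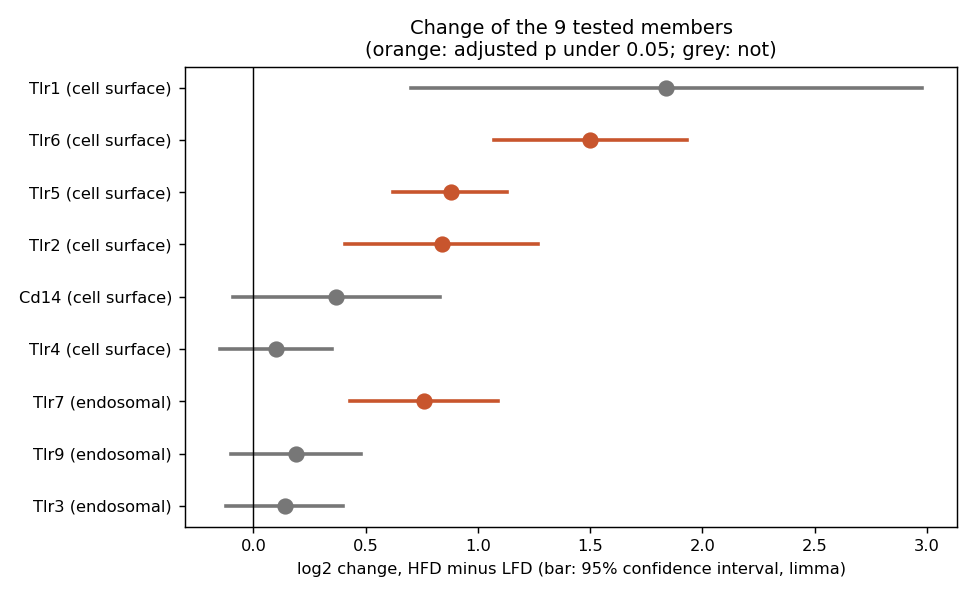
Log2 change, HFD minus LFD (x), of the 9 tested members (y) with 95% confidence intervals from limma; orange marks adjusted p under 0.05. Tlr6 (1.50), Tlr5 (0.88), Tlr2 (0.84) and Tlr7 (0.76) are orange, Tlr1 (1.84) has the widest interval, and the intervals of Tlr4, Tlr3, Tlr9 and Cd14 include 0.

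These calls depended on having all 4 arrays. Without HFD replicate 2, the array with the highest background, the log2 changes were 1.64 for Tlr6, 0.91 for Tlr5, 0.76 for Tlr2 and 0.84 for Tlr7, close to those with it. Their adjusted p-values then ranged from 0.0815 to 0.2135, and 9 genes of the whole array were called higher. Without LFD replicate 1 the changes were 1.63, 0.90, 1.01 and 0.85 in the same order, with adjusted p-values from 0.0527 to 0.0738. With any 1 array left out, none of these 4 passed (adjusted p from 0.0527 to 0.2135), and no tested member turned its direction. Scaling arrays by their median in place of the 75th percentile left Tlr2 and Tlr7 above the threshold (adjusted p = 0.0697 and 0.0570), and without a filter on dim probes limma called no gene of the array, with 5608 at an unadjusted p under 0.05.

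The genes whose pattern over the 4 arrays was most like that of a called member were found by the root mean square difference of log2 signal after centring each gene, among 14354 genes. For Tlr6 they were the complement receptor C3ar1 (0.026) and the lysosomal protease Lgmn (0.058). For Tlr7 they were the scaffold Iqgap1 (0.007) and the exchange factor Tiam1 (0.015). For Tlr2 the nearest was the receptor phosphatase Ptprj (0.022), and for Tlr5 the collagen gene Col5a2 (0.016). With 4 arrays many genes share a pattern by its shape alone, so these are descriptions.

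The machinery around the receptors was described by lists of partners, signalling proteins, inhibitors and target genes. Of 87 listed genes 83 were on the arrays by name and 73 were tested. By limma 22 were higher in HFD and 0 lower, where 5.75% and 5.61% of all tested genes were. At an unadjusted p under 0.05 the counts were 40 and 0 of 73, beside the 18.2% and 16.7% of all tested genes. With 1 array left out, 1 to 14 were called higher. Their median log2 change was 0.38, against 0.02 over all tested genes. No probe was found by name for Tlr11, Tlr12 or Tlr13, which are not analysed here.

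**Figure D4:**
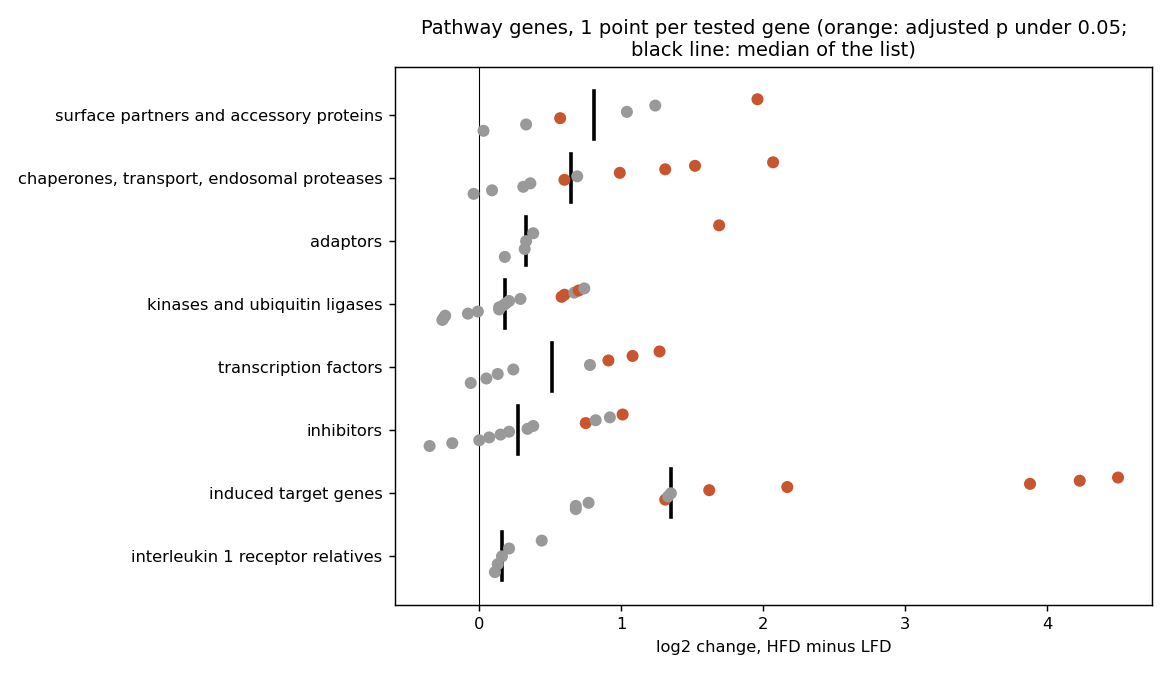
Log2 change, HFD minus LFD (x), of each tested pathway gene, 1 row of points per list (y); orange marks adjusted p under 0.05 and black lines are medians. Called genes appear in every list but the interleukin 1 receptor relatives, and no called gene lies below 0. Il1rl1, of that receptor family, is plotted with the inhibitors. The induced targets have the highest median, 1.35, and the kinases and ubiquitin ligases 0.18.

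Of the 6 surface partners, 2 were higher and 0 lower, where 5.75% and 5.61% of all tested genes were. At an unadjusted p under 0.05, 5 were higher and 0 lower, beside 18.2% and 16.7% of all tested genes. Lbp, which carries lipopolysaccharide to Cd14, had log2 signals of 2.31 and 3.03 in LFD and 4.62 and 4.63 in HFD. That is a 3.88-fold difference (log2 change 1.96, SE 0.26, adjusted p = 0.0297), without overlap of the diets. Tril, an accessory protein of Tlr3 and Tlr4 signalling, was 1.48-fold higher (adjusted p = 0.0387). The receptor Cd180 and its partner Ly86 had folds of 2.35 and 2.05 without passing (adjusted p = 0.0915 and 0.0590), and Ly96, the partner of Tlr4, had a log2 change of 0.33 (adjusted p = 0.1078). Of the lipopolysaccharide receptor complex, Lbp therefore passed the test while Cd14, Ly96 and Tlr4 did not, and differences between them were not tested.

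Endosomal receptors need a chaperone to leave the endoplasmic reticulum and proteases that trim their outer part. Of 10 such genes 5 were higher and 0 lower by limma, where 5.75% and 5.61% of all tested genes were. Their median log2 change was 0.65. At an unadjusted p under 0.05, 8 were higher and 0 lower (18.2% and 16.7% of all tested genes). Unc93b1, the chaperone that escorts Tlr3, Tlr7 and Tlr9, had log2 signals of 2.04 and 1.85 in LFD and 2.87 and 3.00 in HFD, with no overlap. It was 1.99-fold higher (log2 change 0.99, SE 0.12, adjusted p = 0.0251), and its other probe gave a log2 change of 0.70. The cathepsin Ctss, a protease of macrophages and other antigen-presenting cells, was 4.20-fold higher (adjusted p = 0.0137). The asparagine endopeptidase Lgmn was 2.87-fold higher (adjusted p = 0.0178), and the cathepsins Ctsk and Ctsl 2.48-fold (adjusted p = 0.0362) and 1.52-fold (adjusted p = 0.0429). Ctsb, measured by a pair of probes, had log2 changes of 0.36 at the brighter probe and 1.42 at the other and was not called. Slc15a4, a transporter that endosomal Tlr7 and Tlr9 signalling requires, had a log2 change of 0.31 (adjusted p = 0.1238).

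Among the adaptors, Pik3ap1, which links the receptors to phosphoinositide kinase, had log2 signals of -1.65 and -1.97 in LFD and -0.13 and -0.11 in HFD. It was 3.22-fold higher (adjusted p = 0.0167) and was the only adaptor of the 5 tested to pass. By limma 5.75% of all tested genes were called higher and 5.61% lower. At an unadjusted p under 0.05, 4 adaptors were higher and 0 lower, beside 18.2% and 16.7% of all tested genes. Myd88, used by every Toll-like receptor but Tlr3, differed by 0.33 log2 units (SE 0.12, adjusted p = 0.1464), and Ticam1 by 0.38 (SE 0.09, adjusted p = 0.0712).

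Downstream, 3 of 16 kinases and ubiquitin ligases were higher and 0 lower, where 5.75% and 5.61% of all tested genes were. At an unadjusted p under 0.05, 5 were higher and 0 lower, beside 18.2% and 16.7% of all tested genes. The called genes are named here. These were Irak2 (1.62-fold, adjusted p = 0.0486), Traf3 (1.50-fold, adjusted p = 0.0374) and Ikbke (1.52-fold, adjusted p = 0.0499), and the first and last lie at the threshold. Under median scaling Irak2 and Ikbke had adjusted p-values of 0.0550 and 0.0759. Among 8 tested transcription factors, Irf5, which carries Myd88 signals to cytokine genes, was 2.41-fold higher (adjusted p = 0.0179). Irf8 and Spi1, factors of the myeloid lineage, were 2.12-fold (adjusted p = 0.0455) and 1.88-fold higher (adjusted p = 0.0256). Irf8 had an adjusted p of 0.0591 under median scaling. The log2 change of Spi1, 0.91, became 0.49 with another background correction (normexp, offset 50). Nfkb2, of the NF-κB family, had a 1.71-fold difference and an adjusted p of 0.0513.

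Inhibitors of the pathway were also among the genes called, with 2 of 12 tested higher and 0 lower. The shares of all tested genes were 5.75% and 5.61%. At an unadjusted p under 0.05, 5 inhibitors were higher and 0 lower, beside 18.2% and 16.7% of all tested genes. Tnfaip3, a ubiquitin-editing enzyme that ends NF-κB signalling, was 2.02-fold higher (adjusted p = 0.0334), and Il1rl1, a receptor chain that competes for adaptors, 1.68-fold (adjusted p = 0.0264). Of 11 tested target genes 6 were higher and 0 lower, with a median log2 change of 1.35. At an unadjusted p under 0.05, 8 targets were higher and 0 lower. The chemokine Ccl3 was 4.51-fold higher (adjusted p = 0.0125), but its log2 change of 2.17 became 1.28 with another background correction (normexp, offset 50). Ccl2 was 14.75-fold higher (adjusted p = 0.0143), with a log2 change of 3.88, and 3.76 under normexp. Saa3 was 18.82-fold higher (adjusted p = 0.0137), with a log2 change of 4.23, and 3.94 under normexp. Cxcl1, also counted, passed the filter through HFD alone, since it was not well above background in LFD. It was higher by at least 5.15-fold, and its log2 change under normexp was 1.63. Its adjusted p of 0.0137 rests on undetected LFD signals and carries no weight. The list of interleukin 1 receptor relatives, which share the TIR domain but not the microbial ligands, had 0 of 5 called by limma. At an unadjusted p under 0.05 it had 1 higher and 0 lower, and its median log2 change was 0.16. Il1rl1, of the same receptor family, was counted with the inhibitors, so the 0 holds for this list only.

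Cell type markers moved with these results. Beside the counts below, 5.75% of all tested genes were called higher and 5.61% lower (18.2% and 16.7% at an unadjusted p under 0.05). Of 12 macrophage and monocyte markers 8 were higher and 0 lower by limma (10 and 0 at an unadjusted p under 0.05), with log2 changes from 0.23 to 2.28 and a median of 1.34. Their summed signal was 194 and 172 times the 75th percentile in LFD and 308 and 318 in HFD. Of 8 neutrophil markers only 3 were tested. Cxcr2, Mmp8, Camp and Ngp did not pass the filter, and Ly6g had no probe by name. The 3 tested markers summed to 0.879 and 0.713 in LFD and 2.12 and 2.13 in HFD, and 2 of them were called higher. A sum weights its brightest probes, and this one moved mostly with S100a8, whose log2 change was 3.51 (adjusted p = 0.0101), while S100a9 had 0.30 (adjusted p = 0.2862). Of the 7 classical dendritic cell markers tested, 1 was higher and 0 were lower by limma (1 and 1 at an unadjusted p under 0.05), with a median of 0.00. In bulk tissue, more cells of a type and more RNA per cell cannot be told apart, and the part of these cells in the receptor results was not tested.

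Plasmacytoid dendritic cells are the classic carriers of Tlr7 and Tlr9. Of their 7 markers 0 were higher and 2 lower by limma, with a median log2 change of 0.03, and at an unadjusted p under 0.05 the counts were also 0 and 2. Siglech, their surface lectin, was at least 1.4-fold lower in HFD, where it was not well above background. It passed the filter through LFD alone, so its adjusted p of 0.0346 rests on undetected HFD signals and carries no weight. Ly6d fell by 2.92 on the log2 scale (adjusted p = 0.0410). The remaining markers, Ccr9, Pacsin1, Tcf4, Bst2 and Klk1, had log2 changes from -0.20 to 0.72 and were not called. Epithelial markers were lower in HFD too, as given below, and which cells the fall of Ly6d belongs to was not tested. B cell markers, whose cells also carry Tlr9, summed to 6.28 and 1.25 in LFD and 1.56 and 2.23 in HFD, so they overlapped and LFD replicate 1 was high. Their part in the level of Tlr9 was not tested.

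Markers of mesothelium and epithelium went the other way: 7 of 8 and 6 of 7 were lower in HFD and 0 higher. The epithelial Cdh1, counted here, passed the filter through LFD alone. Over all tested genes 5.61% were lower. Beside 16.7% of all tested genes, 8 and 6 of these markers were lower at an unadjusted p under 0.05. Their sums were 30.3 and 32.3 against 11.8 and 9.16 for mesothelium, and 14.6 and 14.7 against 2.79 and 2.29 for epithelium, LFD first. The part of these tissues in the receptor results was not tested.

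**Figure D5:**
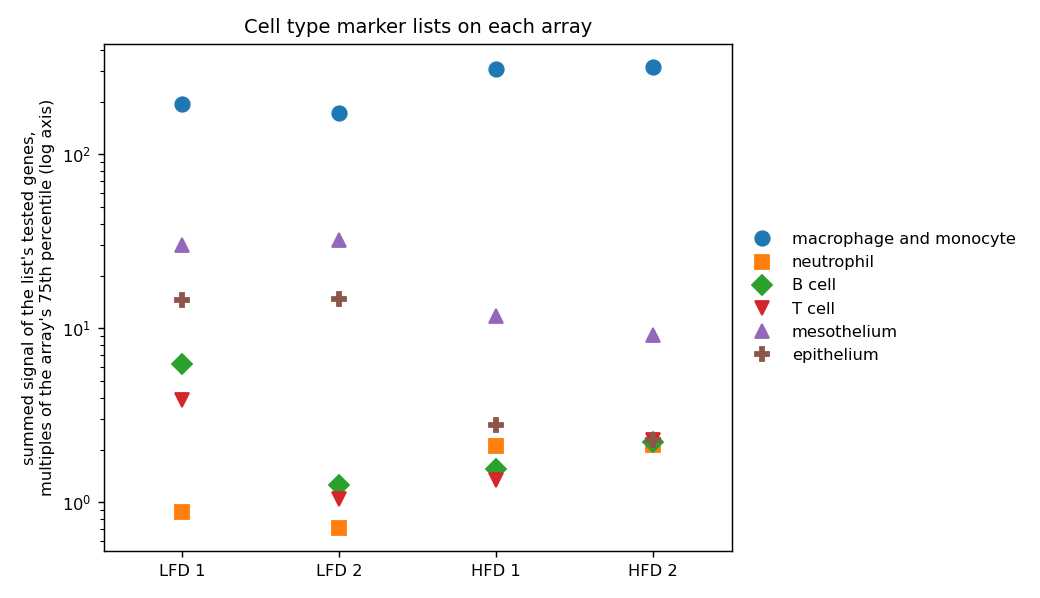
Summed signal of the tested genes of each cell type marker list in multiples of the array's 75th percentile (y, log axis) on each array (x). Macrophage sums are 194 and 172 in LFD and 308 and 318 in HFD, mesothelium and epithelium sums are lower in HFD, and LFD replicate 1 has the highest B and T cell sums.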

How the data were processed

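Total RNA of white adipose tissue was hybridised to 4 one-colour arrays, 2 for each diet. The authors deposited each array's scanner output, whose processed spot intensity is background-subtracted and detrended on a linear scale, per the file headers. The headers give Feature Extraction 11.0.1.1 and the submitters' processing notes 11.5.1.1. In the value table that the authors deposited, each value is the ratio of that intensity to the 75th percentile of its array, on a linear scale without centring, with column medians of 0.117, 0.127, 0.130 and 0.131.

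Spots of a probe were averaged as log2 signal minus the array's 75th percentile. Outlier spots (60 to 115 per array) were left out, and no spot was saturated. Symbols were updated by transcript accession through a RefSeq gene table of another build, used for nothing else (27668 probes had a match and 13506 kept their original symbol). A gene was its tested probe of highest mean signal.

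The 26054 tested probes were fitted with limma 3.58.1 (lmFit and eBayes, two-sided) in R 4.3.3, with residual and prior degrees of freedom of 2 and 2.24, and adjusted over all of them by Benjamini-Hochberg at a threshold of 0.05. The number of arrays limits the precision. Where a diet had no array on which a probe passed detection, the fold is a bound, set per array against the higher of its own signal and the lowest detected signal.

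All members were named, with up to 4 genes of smallest p from each pathway list and any gene of the lists of other Toll-like receptors, surface partners, endosomal chaperones and proteases, and adaptors. The members, lists and rules were chosen with earlier results of these data known. Marker lists not given in the text, fibroblast and endothelium, had 0 of 8 and 0 of 7 genes higher, and 1 and 0 lower. At an unadjusted p under 0.05 they had 1 and 0 higher and 3 and 2 lower. B and T cell lists had 0 of 6 called each way, with 2 and 0 higher at an unadjusted p under 0.05 and 0 lower, and the adipocyte list 0 of 9 higher and 1 lower (1 and 3 at an unadjusted p under 0.05).

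The fit was checked on simulated data for HFD against LFD over 17736 genes. In these, 50 genes were changed at each of 2-, 4-, 8- and 16-fold. Of them 26%, 76%, 92% and 98% were recovered, with 7 false calls. The simulated noise was independent between genes and drawn from limma's own fitted spread, and fewer genes were changed than were called in the data. The figures therefore describe that setting and not the error rate of the real comparison. Alternatives were quantile or median scaling, normexp background (offset 50), the deposited table, other filters on dim probes, outlier spots kept, probe means, a replicate block, trend and robust options in eBayes, omission of each array, and a threshold of 0.10.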

Additional observations from a re-analysis of the deposited data

Results flagged for a closer look

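Tlr8 was outside the tested genes, yet its log2 signal, scaled to the 75th percentile of each array, was -3.82 on HFD replicate 1, where it was well above background. On the control diet it was not well above background on either array, with -6.71 and -5.64. HFD replicate 2 gave -4.68, also not well above background.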

How the results depend on the processing

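Every tested member kept its direction under all alternatives run, but sizes varied. Under normexp the log2 changes of Tlr6, Tlr5 and Tlr7 were 1.19, 0.65 and 0.62, against 1.50, 0.88 and 0.76. That of Tlr2 was 0.83 against 0.84. Surface members called higher numbered 0 without a filter on dim probes, 1 with the replicate block and 0 to 1 with an array left out, against 3. Endosomal members numbered 0 under median scaling, without a filter, with the replicate block and with any array left out, against 1. Pathway genes numbered 0 without a filter, 7 with the block, 1 to 14 with an array left out and 34 at a threshold of 0.10, against 22. Over all genes, 1019 higher became 1618 under normexp, 1598 with detection required on all arrays, 1826 with trend and robust options, 220 with the block, 9 to 470 with an array left out and 2260 at 0.10. The 995 lower became 1808, 208, 9 to 341 and 2188 under the last 4 of these. Without a filter limma called 0 genes, although 5608 genes and 6 members had an unadjusted p under 0.05. Median scaling split all calls into 852 higher and 1334 lower. The cause of these shifts was not tested, beyond the fewer samples and 1 residual degree of freedom with an array left out, where the lone sample is assumed to vary like the others. Deviations of same-numbered samples correlated with r = 0.00 over 26054 probes, so they shared no deviation across probes. A single correlation cannot tell whether those samples were handled together, and the labels do not say. With the block, Tlr6 kept its call, and Tlr2, Tlr5 and Tlr7 had adjusted p-values of 0.0869, 0.0569 and 0.0623. Under median scaling Tlr2 and Tlr7 had 0.0697 and 0.0570. Tlr6 was called under 10 of 15 alternatives, Tlr5 under 9, Tlr2 and Tlr7 under 8 and Tlr1 under 5, of which 2 leave out an LFD array and 1 is normexp (log2 change 1.52, adjusted p = 0.0137). Those counts of alternatives include the deposited table, a rescaling of the same signals, and the threshold of 0.10, which can only add calls. Keeping outlier spots left the adjusted p of these receptors as it was. Such settings could hardly take a call away, so the counts do not measure robustness. Near-zero changes of uncalled pathway genes reversed. Cd36 had -0.04 under normexp, -0.06 under median scaling and -0.03 to 0.09 with an array left out. Cnpy3 had 0.00 under normexp and median scaling, and Il1rap -0.02 under quantile scaling. With an array left out Il1rap ranged from -0.07 to 0.39, Tirap from -0.01 to 0.36 and Hsp90b1 from -0.15 to 0.08. A block for the slide could not be fitted, since there was 1 slide. Signal over background limits Tlr8, the second Tlr4 probe and the dimmer Tlr3 probe. It also limits Cxcl1 in LFD, and Siglech and Cdh1 in HFD.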
